A study of Mus musculus with 2 samples.

Results

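The genes described here are Nqo1, Hmox1, Gclm, Gclc, Txnrd1, Srxn1, Slc7a11 and Prdx1, a set of antioxidant and detoxification genes controlled by the transcription factor Nrf2, which is encoded by Nfe2l2. They were picked out by gene symbol, and all 8 were present among the 32285 genes of the count tables. The cells were embryonic stem cells of the inbred mouse strain C3H/HeSn-Paf/J, from 9 lines, 3 each derived from XX, XO and XY embryos. The lines were pooled, and the pool was sequenced by droplet single-cell RNA sequencing (10x Genomics, 3′ unique molecular identifiers, UMIs) as 1 library at an early passage (time 1) and 1 library after 10 more passages (time 2). Both libraries came from cells kept on gelatin and irradiated mouse embryonic fibroblast feeders in serum, leukaemia inhibitory factor (LIF) and β-mercaptoethanol (BME), a thiol that reduces cystine. The labels name no drug treatment, transgene or targeted allele.

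Nrf2 is held in the cytoplasm by Keap1, which links it to a Cul3 ubiquitin ligase and so to degradation. Oxidants and electrophiles modify cysteines of Keap1, after which Nrf2 accumulates, pairs with a small Maf protein and binds antioxidant response elements, sites at which the repressor Bach1 competes. Gclc and Gclm are the catalytic and modifier subunits of glutamate-cysteine ligase, the first enzyme of glutathione synthesis, and Slc7a11 (xCT) imports the cystine that this synthesis uses. Txnrd1 reduces thioredoxin, Prdx1 breaks down peroxides, and Srxn1 restores peroxiredoxins that have been overoxidised. Nqo1 reduces quinones, and Hmox1 degrades haem.

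The members lie on chromosomes 2 (Srxn1), 3 (Gclm and Slc7a11), 4 (Prdx1), 8 (Hmox1 and Nqo1), 9 (Gclc) and 10 (Txnrd1), and all are protein-coding in the GRCm38 annotation (GENCODE M21). Hmox1 spans chr8:75093621-75100589 on the plus strand and Nqo1 chr8:107388225-107403206 on the minus strand, on a chromosome that many of the cells had gained. Annotated transcripts of other genes overlap Gclm, Txnrd1 and Slc7a11, so some of their UMIs could belong to those. The RefSeq promoter table (GRCm38.p6, from 250 bases before to 50 after a start site) held 6 of the members, all but Hmox1 and Gclc. The core of the antioxidant response element, TGACNNNGC read on both strands, was present in the windows of 4 of these 6 genes, Gclm, Prdx1, Txnrd1 and Srxn1, and in 13.99% of the 27025 genes of the table. The stretches below are shown because they hold the match before the start site, which is in capitals and reads as the core on the opposite strand. They come from the plus strand, at chr3:122245405-122245449 for Gclm, chr4:116685448-116685492 for Prdx1 and chr10:82859096-82859140 for Txnrd1, where the match begins 134, 133 and 92 bases before the start.
Gclm: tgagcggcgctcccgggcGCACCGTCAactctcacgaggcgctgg
Prdx1: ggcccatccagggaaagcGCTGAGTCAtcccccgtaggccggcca
Txnrd1: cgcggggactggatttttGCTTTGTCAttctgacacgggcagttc
The match in Srxn1 lay after the start, 1 of the 3 Txnrd1 windows held one, and the windows of Nqo1 and Slc7a11 held none. A match is a string of letters in this window and no evidence of binding.

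After filtering, 23210 cells of time 1 and 25483 of time 2 were kept, with medians of 44365.5 and 50386 UMIs per cell. Levels are CPM, the summed UMIs of a group of cells scaled to a common total, and they are compared within a gene only, because 3′ counts were not set against length. Each time point was 1 library and cells could not be assigned to lines, so no difference was tested. Intervals are 95% exact Poisson intervals, or exact intervals of the ratio of counts, and cover counting error only. Clustering gave 15 clusters, each called here by its leading gene. Rhox9-led, Jam2-led, Nanos3-led and Gm46332-led cells, 9563 at time 1 and 19092 at time 2, were treated as pluripotent stem cell-like. All 12 markers of that type were detected in every group of cells, so their detection does not separate the class. This naming was partly a judgement: the Spry2-led cluster (26.1% of cells at time 1 and 0.0667% at time 2), the Krt8-led cluster (4.52% and 1.37%), the Krt18-led cluster (0.297% and 0%) and the Id1-led cluster (0.323% and 18.3%) stayed unnamed and out of the class. The Spry2-led cells of time 1 had 7899 CPM of summed pluripotency markers, above the 6922 in Nanos3-led and 5702 in Gm46332-led cells of time 2, which are in it. With the Spry2-led, Krt8-led and Krt18-led clusters added to the class, an alternative chosen after the data were seen, 0 members were called with passage. The Id1-led cluster was not added, and Spry2-led cells numbered 6066 at time 1 and 17 at time 2. No share of all genes called in that setting is set beside this count, so it is not read as a result about the members. The libraries shared 192 cell barcodes.

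Each of the 8 genes varied at least 3-fold among the 25 groups of 50 or more cells given by cluster and time point. No share of all genes with such a range is set beside this, so it is not read as a trait of the members. The highest Prdx1 and the lowest Gclc and Txnrd1 were those of the Krt18-led cells, whose median was 352626 UMIs. Nqo1 spanned 45.6-fold, with its lowest level resting on 9 UMIs, and Prdx1 3.75-fold. Slc7a11 had its lowest level, 0.304 CPM on 2 UMIs, in Nanos3-led cells of time 1. That is below its 1.58 CPM in the low-count barcodes of time 1 described below, so no fold is given for it. Nqo1, Hmox1 and Srxn1 were among the variable genes that defined the clusters, so these levels describe the clusters and test nothing. Leaving the members and the pathway lists out of the clustering also gave at least 3-fold for 8 of 8. There Nqo1 spanned 35.3-fold with its lowest level on 20 UMIs, and the lowest Slc7a11, 0.197 CPM, rested on 1 UMI. The ranges of Nqo1 and Slc7a11 thus rest on few UMIs at the low end, and their size is not read as a result.

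**Figure D1:**
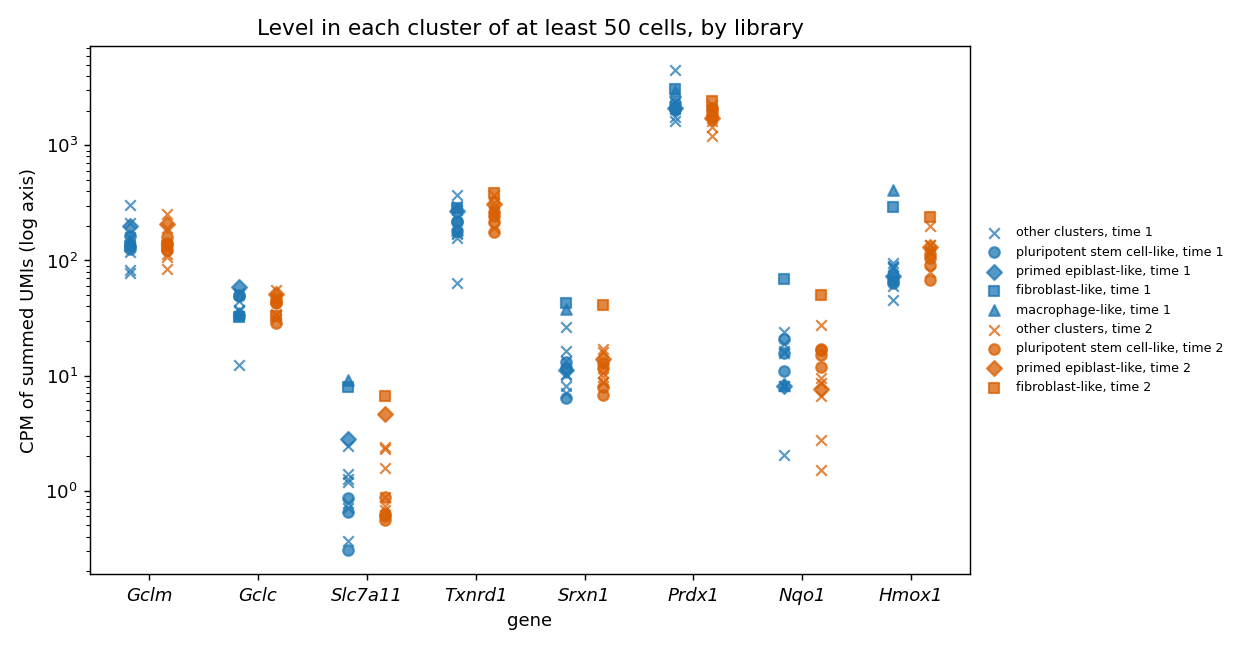
Level of each gene (horizontal axis) in every cluster of at least 50 cells, in CPM of summed UMIs on a log axis, with time 1 in blue, time 2 in orange and the shape of a point giving its cell type. Squares for fibroblast-like cells lie at or near the top for Nqo1 (69.2 and 50.5 CPM), Srxn1, Slc7a11 and Hmox1.

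The glutathione genes showed different leading groups. Gclm was highest in endothelial-like Ramp2-led cells, at 304 CPM at time 1 and 253 at time 2, and lowest in mesendoderm-like Lhx1-led cells, at 77.2 and 85.1. Gclc was at 59.2 and 51.1 CPM in primed epiblast-like Fgf8-led cells and at 55.2 in Id1-led cells of time 2, against 49.8 and 42.8 in Rhox9-led and 33.8 and 28.7 in Jam2-led cells, both pluripotent stem cell-like. Slc7a11 was scarce in pluripotent stem cell-like clusters, at 0.870 and 0.883 CPM in Rhox9-led cells. Those levels were below the 1.58 and 2.06 CPM of barcodes with 500 to 2000 UMIs, taken here as free RNA, and under the minimum level of 10 CPM, so no fold is given over them. At time 1 other levels in pluripotent cells were also below those barcodes, with Nqo1 at 16.4 against 17.3 CPM, Srxn1 at 11.9 against 13.97, Gclc at 47.5 against 48.4, Txnrd1 at 215 against 260.1 and the pluripotency gene Pou5f1 at 708 against 952. The part of free RNA in the members' levels was not tested, and ratios of Nqo1 and Srxn1 describe summed counts at levels near or under those of these barcodes. Slc7a11 reached 2.81 and 4.62 CPM in Fgf8-led cells, 7.93 and 6.69 in fibroblast-like cells and 9.10 in the 56 macrophage-like Lyz2-led cells of time 1.

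Among the thioredoxin and peroxiredoxin genes, Txnrd1 was at 373 CPM in Ramp2-led cells at both times and at 220 and 266 in Rhox9-led cells. Srxn1 was at 43.0 and 41.0 CPM in fibroblast-like cells and 37.7 in macrophage-like cells, and at 6.39 and 6.73 in Nanos3-led cells, the lowest of the pluripotent clusters. Prdx1 was at 3056 and 2448 CPM in fibroblast-like cells and at its lowest, 1205, in primitive or parietal endoderm-like Srgn-led cells of time 2. The Krt18-led cluster of time 1 held the highest Prdx1 (4516 CPM) and the lowest Txnrd1 (64.2) and Gclc (12.4), but its 69 cells had a median of 352626 UMIs and it carries no name.

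The 2 chromosome 8 genes differed in pattern. Hmox1 was highest in macrophage-like cells, at 412 CPM, followed by fibroblast-like cells at 290 and 239 and Srgn-led cells of time 2 at 201. The 56 macrophage-like cells also carried 5673 CPM of summed pluripotency markers, against 10572 in the pluripotent stem cell-like cells of time 1, and the part of RNA from such cells in their levels was not tested. Lhx1-led cells had the lowest Hmox1 at time 1, 44.9 CPM. Nqo1 was at 69.2 and 50.5 CPM in fibroblast-like cells, then at 23.8 and 27.5 in two-cell-like B020031M17Rik-led cells and 20.6 and 16.6 in Jam2-led cells. It was low in mesendoderm-like cells, at 2.03 and 2.76 CPM, and lowest in Srgn-led cells of time 2, at 1.52. The macrophage-like cells, highest in Hmox1, had 8.24 CPM of Nqo1.

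The fibroblast-like cells, 460 and 675 in number, carried more Nqo1, Hmox1 and Srxn1 than the pluripotent stem cell-like cells at both times. Calls here are differences of 1.5-fold or more on the log2(CPM + 1) scale, counted over genes that reached 10 CPM in one of the groups. Nqo1 was at 69.2 against 16.4 CPM at time 1 and 50.5 against 13.8 at time 2, and Srxn1 at 43.0 against 11.9 and 41.0 against 7.93, with no fold given because low-count barcodes had 17.3 and 11.0 CPM of Nqo1 and 13.97 and 8.26 of Srxn1. Hmox1 was 4.09-fold (4.0 to 4.20) and 2.48-fold (2.43 to 2.53) higher. Txnrd1 passed at time 2, at 388 against 223 CPM, and not at time 1, at 283 against 215. Slc7a11 was under the minimum level, at 7.93 against 0.832 CPM and 6.69 against 0.591. Gclm and Gclc, the ligase subunits, were not among the called genes, and Gclc was at 32.5 against 47.5 CPM and 33.2 against 43.4. Thus 3 of 7 tested members were higher at time 1, where 27.6% of all tested genes were higher and 56.5% differed in either direction, and 4 of 7 at time 2, with 27.5% and 54.0%. Of the regulators, 4 of 9 were higher at each time (Nfe2l2, Maff, Mafk and Nfe2l1) and none was lower, with Nfe2l2 at 85.4 against 47.9 CPM and 83.6 against 42.8. Of 22 tested further Nrf2 targets 8 were higher at each time, such as Mgst1, a microsomal glutathione transferase, at 49.2 against 0.446 CPM and 28.8 against 0.305, while 4 and 5 were lower, such as Gsr. Pou5f1, a pluripotency gene, was at 256 and 342 CPM in the fibroblast-like cells against 708 and 789 in the pluripotent cells and 952 and 699 in barcodes of 500 to 2000 UMIs. The part of free RNA in these levels was not tested.

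Primed epiblast-like Fgf8-led cells of time 1 had a lower level of Nqo1 than the Rhox9-led pluripotent cells of the same library. Nqo1 was at 8.05 against 15.8 CPM, a ratio of 0.511 (0.487 to 0.536), and it was the 1 called gene of 7 tested members, where 20.0% of all tested genes were called. Gclm, Gclc and Txnrd1 had ratios of 1.21, 1.19 and 1.22, under the call. Slc7a11, at 2.81 against 0.870 CPM, was below the minimum level. Among the genes of the Atf4 pathway, a stress response whose factor also regulates Slc7a11, 3 of 7 were higher (Asns, Psat1 and Phgdh, enzymes of amino acid synthesis) and none was lower. The small Maf genes Maff and Mafk were higher, 2 of 9 regulators, and Nfe2l2 was at 44.2 against 48.7 CPM. Among other Nrf2 targets none of 20 was higher and 4 were lower (Gsr, Gsta4, Gstm1 and Gpx2).

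At time 2 the Id1-led cluster, whose leading genes include Dnmt3b and Nes, was set against Nanos3-led cells. None of the 6 tested members reached 1.5-fold, where 18.3% of all tested genes did. Txnrd1 was at 317 against 218 CPM (1.46-fold), Gclm at 193 against 136 (1.42-fold) and Nqo1 at 8.67 against 12.0 (0.722). Slc7a11 was below the minimum, at 2.42 against 0.555 CPM, levels not above the interval of 1.34 to 3.05 CPM in low-count barcodes.

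In pluripotent stem cell-like cells, none of the 7 tested members differed by 1.5-fold between the time points, where 16.0% of the 7361 tested genes did. Different clusters held most of these cells: 8308 of 9563 were Rhox9-led at time 1, and 10201 of 19092 were Nanos3-led and 5966 Gm46332-led at time 2. Their summed pluripotency markers were at 10572 and 7192 CPM, and the part of either in the members' differences was not tested. Gclm was at 159 CPM at time 1 and 138 at time 2 (ratio 0.868), and Gclc at 47.5 and 43.4 (0.913). Slc7a11 was at 0.832 and 0.591 CPM, below the minimum level and below its level in the low-count barcodes. With edgeR's TMM factors the log2 ratio of Gclm was -0.05 and that of Gclc turned to 0.02, so no direction is given for them.

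Txnrd1 was at 215 and 223 CPM (1.04) and Prdx1 at 2098 and 2035 (0.970), the smallest differences of the set. Srxn1 was at 11.9 and 7.93 CPM, a ratio of 0.668 (0.647 to 0.690) and the lowest of the 8. Nqo1 was at 16.4 and 13.8 CPM (0.840, 0.818 to 0.862). Hmox1 was at 70.9 and 96.3 CPM, 1.36-fold (1.34 to 1.38), the highest of the 8. It lies on chromosome 8, whose 434 tested genes had a median log2 ratio of 0.29 with passage. Of these genes, 67.1% lay lower than Hmox1 and 10.8% lower than Nqo1. Cells with no gained autosome, as defined below, were 85.1% of the class at time 1 and 20.8% at time 2. The part of such gains in these differences was not tested. The median log2 ratio of the tested members was -0.13, beside -0.03 for all tested genes. Scaling by TMM moved the latter to 0.12, Prdx1 from -0.04 to 0.11 and Hmox1 to 0.59, which is past the call.

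Single clusters of all cell types were also compared between the times. Of these, only Rhox9-led, Jam2-led and Nanos3-led cells belong to the pluripotent class of the pooled comparison, so the counts below cover other cells as well. Of 10 clusters with 50 cells at both times, Hmox1 was above 0 on the log2 scale in 9, while fibroblast-like cells were at -0.28. It was past the call in 4, the B020031M17Rik-led, Fgf8-led, Ramp2-led and Lhx1-led clusters, all outside the pluripotent class. No share of all tested genes is set beside these calls. Txnrd1 was above 0 in 8 of the 10 and Prdx1 below 0 in 9. Nqo1 was above 0 in 5 and below in 5. Srxn1, lower in the pooled comparison of pluripotent cells, was above 0 in 6 of these 10 clusters.

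With passage, 16.0% of all tested genes were called, and the counts in the regulator and companion lists stand beside that share. Of 8 tested regulators, Maff, a small Maf protein, was lower (11.3 to 4.64 CPM) and none was higher. Nfe2l2 was at 47.9 and 42.8 CPM, Keap1 at 22.1 and 24.3 and Bach1 at 34.1 and 27.1. Of 20 tested further targets, 3 were lower, namely Me1 (18.9 to 11.2 CPM), Gstm1 (100.3 to 47.4) and Blvrb (111 to 69.7), and none was higher. Among 11 other antioxidant genes the 1 call was Gpx4, which detoxifies lipid peroxides, at 2041 and 1059 CPM. Asns, asparagine synthetase, was higher (105 to 158 CPM) and Ddit3 lower (11.6 to 6.54) among 7 Atf4 pathway genes.

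Cells were also divided by X chromosome dosage and by Y-linked UMIs. X-high cells had no UMI of 4 Y-linked genes and an X share of at least 1.2 times the reference, X-low cells had no such UMI and a lower share, and Y-positive cells had at least 2 such UMIs. These are classes of RNA output and cannot be read as karyotypes, and the comparison was added after values had been seen. X-high cells were 55.8% of pluripotent stem cell-like cells at time 1 and 16.1% at time 2, and X-low cells 29.7% and 71.1%. In cells with no gain of an autosome, X-high cells were 61.5% and 62.5%.

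Among cells with no gain, Nqo1 and Srxn1 were higher in X-high than in X-low cells at both times. Nqo1 was at 19.8 against 10.3 CPM at time 1, 1.92-fold (1.80 to 2.06), and at 16.4 against 12.5 at time 2, 1.31-fold (1.21 to 1.41). Srxn1 was at 13.2 against 9.33 CPM, 1.41-fold (1.31 to 1.52), and at 11.9 against 6.88, 1.73-fold (1.56 to 1.91). At time 2 Gclc was lower in X-high cells, at 30.9 against 45.6 CPM, as was Hmox1, at 73.1 against 88.8. At time 1 neither passed, with Gclc at 44.5 against 52.8 and Hmox1 at 69.0 against 70.5. Gclm, Txnrd1 and Prdx1 were within 1.2-fold at both times, but within Rhox9-led cells at time 2 Prdx1 was called lower in X-high cells, at 1700.01 against 2086 CPM, and Hmox1 was not called.

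These calls, at 1.2-fold or more, covered 2 of 7 tested members at time 1, where 25.6% of all tested genes were called, and 4 of 7 at time 2, where 34.2% were. With TMM factors the count at time 1 became 4, with no share of all genes beside it, so which members passed there depended on the scaling. None of the members is on the X chromosome. Hmox1 and Nqo1 lie on chromosome 8, whose tested genes had a median log2 difference of -0.05 at time 1 and -0.22 at time 2. Of those genes, 53.0% and 40.0% lay lower than Hmox1 and 99.5% and 95.4% lower than Nqo1. At time 2 the median chromosome 8 ratio was 0.98 in these X-high and 1.13 in these X-low cells, and its part in the differences was not tested. X-high and X-low cells fell into different clusters: at time 2, 75.2% of the X-high cells were Jam2-led and 65.7% of the X-low cells Nanos3-led. Within Rhox9-led cells Nqo1 was at 19.5 against 10.1 CPM at time 1 and 19.7 against 12.4 at time 2. Within Nanos3-led cells at time 2 Srxn1 was at 11.1 against 6.51 CPM, Nqo1 at 13.5 against 11.6, under the call, and Hmox1 turned to a log2 difference of 0.18. Pluripotency markers summed to 11436 against 9613 CPM at time 1 and 11478 against 7776 at time 2, and their part in the differences was not tested.

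Other genes of the pathway differed between the X classes in both directions. Of 20 tested further targets 5 were higher and 4 lower in X-high cells at time 1, and 3 were higher and 8 lower at time 2, where 25.6% and 34.2% of all tested genes were called. Me1, malic enzyme, a source of NADPH, was at 23.8 against 10.7 CPM and 24.6 against 8.09, and Gss, glutathione synthetase, at 17.5 against 12.5 and 22.6 against 12.4. G6pdx was at 31.4 against 21.6 CPM and 29.1 against 21.2, but it lies on the X chromosome, as does Prdx4. Of the regulators none of 8 was called at time 1, and Nfe2l1 alone of 7 at time 2, higher. Nfe2l2 was at 47.4 against 50.1 CPM and 38.9 against 44.0, Keap1 at 22.5 against 20.9 and 25.1 against 26.1, and Bach1 at 34.03 against 33.1 and 29.8 against 27.1.

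Y-positive cells stood close to X-low cells. At time 1 Nqo1 was at 12.6 against 10.3 CPM, 1.22-fold (1.09 to 1.37), the 1 call of 7 tested members where 0.963% of all tested genes were called. At time 2, with 178 Y-positive cells, none of 6 was called and 4.96% of all tested genes were, with Nqo1 at 14.6 against 12.5 CPM. The time 1 call was lost with TMM scaling, with every cell weighted alike, within Rhox9-led cells and with stricter class limits.

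Passage within each class, in cells with no gain, gave smaller differences in Srxn1 and opposite ones in Nqo1. In X-high cells Nqo1 was at 19.8 and 16.4 CPM and Srxn1 at 13.2 and 11.9, and in X-low cells Nqo1 was at 10.3 and 12.5 and Srxn1 at 9.33 and 6.88. None of 7 tested members reached 1.5-fold in X-high cells, where 12.2% of genes did, and none of 6 in X-low cells, where 9.79% did. In Y-positive cells Hmox1 was at 64.9 and 102 CPM, 1.56-fold (1.46 to 1.67), the 1 call of 7, with 8.62% of genes called. Hmox1 was at 69.0 and 73.1 CPM in X-high and 70.5 and 88.8 in X-low cells. The time 2 X-low and Y-positive cells without a called gain had median chromosome 8 ratios of 1.13 and 1.2, against 0.98 in X-high cells.

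**Figure D2:**
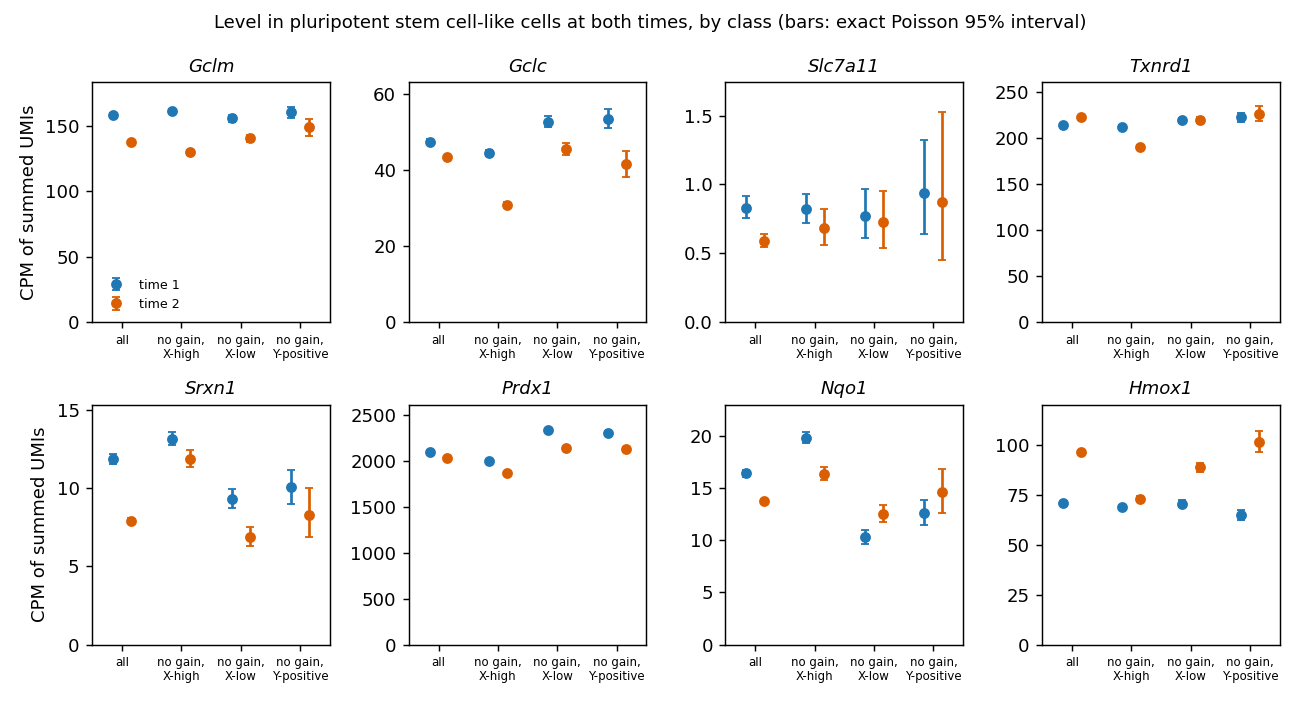
Level of each gene in pluripotent stem cell-like cells at time 1 (blue) and time 2 (orange), in CPM of summed UMIs from 0, for all cells and for X-high, X-low and Y-positive cells with no gain; bars are 95% exact Poisson intervals. Srxn1 was at 11.9 and 7.93 CPM over all cells and at 13.2 and 11.9 in X-high cells with no gain, and Hmox1 was higher at time 2 most clearly in Y-positive cells (64.9 and 102 CPM).

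A chromosome was called gained in a cell where its share of UMIs was at least 1.3 times the median share of time 1 pluripotent cells. The members, the regulators and the companion lists, Gsr among them, were left out of the shares. At time 1, 706 cells (7.38%) had a gain of 8 alone and 8134 had none. At time 2, 3021 cells had a gain of 8 alone, 3872 of 1 alone, 3748 of 1 and 8, 1880 of 1 and 14, and 3980 had none. At time 1, 83.9% of 453 tested chromosome 8 genes were at least 1.2-fold higher with a gain of 8 alone than with none. At time 2 the share was 76.2% of 441. The cells were chosen by their summed chromosome 8 UMIs, so high shares were fixed by the choice. Hmox1, Nqo1 and Gsr had no part in it. The ranks of Hmox1 and Nqo1 among chromosome 8 genes, given below, are therefore not on equal terms.

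Over all pluripotent stem cell-like cells with a gain of 8 alone, the chromosome 8 gene Hmox1 was higher and Nqo1, on the same chromosome, lower than in cells with none, but the direction of Nqo1 at time 2 turned in 1 of 3 clusters. Hmox1 was at 92.5 against 69.0 CPM at time 1, 1.34-fold (1.29 to 1.39), and at 107 against 79.8 at time 2, 1.34-fold (1.31 to 1.36). Of the tested chromosome 8 genes, whose median log2 difference was 0.49 and 0.40, 36.6% and 52.8% lay lower. Nqo1 was at 11.0 against 16.9 CPM at time 1, a ratio of 0.651 (0.588 to 0.719), the lowest of all 453 tested genes of the chromosome. At time 2 it was at 12.6 against 15.2, 0.828 (0.784 to 0.875), short of the call. Within single clusters at time 2, Nqo1 was at 10.4 against 19.2 CPM in Rhox9-led, 11.9 against 12.2 in Nanos3-led and 16.99 against 14.7 in Gm46332-led cells, so it was lower in 2 of 3. Hmox1 was higher in 3 of 3, and past the call in 2.

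Of the members on other chromosomes, Srxn1 was lower at both times, at 9.70 against 12.0 CPM and 6.71 against 10.2, though in Gm46332-led cells of time 2 it turned to a log2 difference of 0.16. Gclc was higher at time 2, at 49.0 against 36.1 CPM, and not at time 1, at 50.3 against 47.5. Within clusters at time 2 it was called in 1 of 3, the Rhox9-led, at 50.1 against 41.2. Gclm, Txnrd1 and Prdx1 were under 1.2-fold both times. The calls came to 3 of 7 at each time, where 26.7% and 28.0% of all tested genes were called. Gsr, glutathione reductase, also on chromosome 8, was at 165 against 120 CPM and 188 against 111.

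Cluster, pluripotency markers and X class moved with the gain. At time 2, 49.4% of the cells with no gain were Jam2-led and 28.4% Nanos3-led, against 1.26% and 83.1% of those with a gain of 8 alone, and summed pluripotency markers were at 10145 and 7079 CPM. At time 1 the markers were at 10841 and 7678 CPM. The part of clusters and markers in these differences was not tested. X-high cells were 61.5% and 62.5% of the cells with no gain and 3.97% and 8.01% of those with a gain of 8 alone. Within X-low cells Nqo1 was at 10.3 CPM with and without the gain at time 1, a ratio of 0.998 (0.880 to 1.13), and at 12.5 with and without it at time 2, 1.00 (0.921 to 1.09). The time 2 X-low cells without a called gain had a median chromosome 8 ratio of 1.13. Over all time 2 X-low cells, with or without a called gain, those at a ratio of 0.9 to 1.1 had 10.6 CPM of Nqo1 (9.86 to 11.4). That was below the 13.4 (12.97 to 13.8) at 1.1 to 1.3 and the 13.5 (13.1 to 13.8) at 1.3 to 1.5. With against without a gain of 8 in X-low cells, Srxn1 was at 9.82 against 9.33 CPM and 6.51 against 6.88. Gclc was at 49.7 against 52.8 and 49.3 against 45.6. None of these 3 genes was called among X-low cells, although at time 2 Gclc and Srxn1 differed in the same direction as in the unsplit comparison.

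Hmox1 kept a difference there, at 92.5 against 70.5 CPM at time 1, 1.31-fold (1.26 to 1.37), and 105 against 88.8 at time 2, 1.18-fold (1.15 to 1.22), under the call. In these X-low cells 1 of 6 members was called at time 1, where 15.4% of all tested genes were, and 0 of 6 at time 2, where 7.46% were. Nqo1 remained low among chromosome 8 genes, whose median log2 difference in X-low cells was 0.45 and 0.27: 1.55% and 2.73% of those genes were lower.

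In the companion lists a gain of 8 alone went with calls in both directions too. Of 20 tested further targets, 3 were higher and 6 lower at time 1, and 4 higher and 4 lower at time 2, where 26.7% and 28.0% of all tested genes were called. Within X-low cells these counts were 1 and 5 of 20, and 2 and 2 of 19, where 15.4% and 7.46% of genes were called. There Gsr was higher at 165 against 124 CPM and 190.1 against 134, and Cbr3, a carbonyl reductase, was lower at 17.2 against 27.9 and 15.3 against 23.1. None of the regulators was called at either time. At time 1, 5 of 8 Atf4 pathway genes were higher (Trib3, Asns, Chac1, Psat1 and Phgdh), of which Trib3 and Chac1 were also called within X-low cells. At time 2 none of 6 was called.

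**Figure D3:**
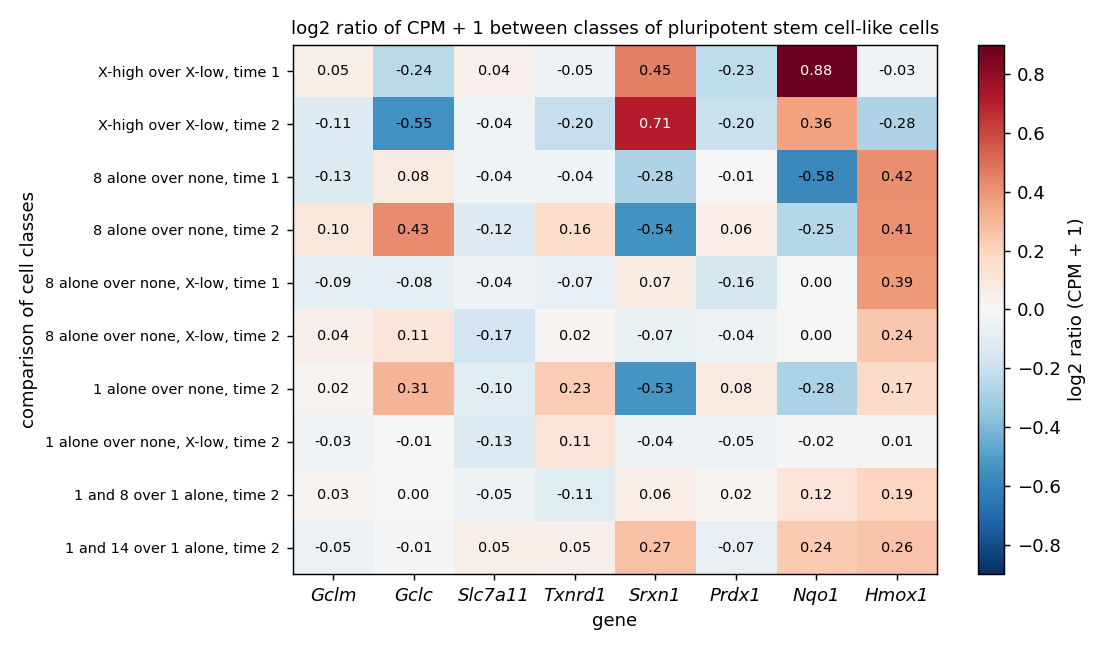
Heat map of the log2 ratio of CPM + 1 for each gene (columns) in each comparison of classes of pluripotent stem cell-like cells (rows), where red is higher in the first class, blue is lower, and numbers give the value. Nqo1 is at 0.88 and 0.36 in the X-high over X-low rows and near 0 for a gain of 8 within X-low cells, where Hmox1 is at 0.39 and 0.24.

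Cells with a gain of 1 alone at time 2 also differed from those with none. Hmox1, called with a gain of 8, was at 89.8 against 79.8 CPM, 1.13-fold (1.105 to 1.15), and not called. Nqo1 was at 12.3 against 15.2 CPM and Srxn1 at 6.76 against 10.2, both lower, and Gclc at 45 against 36.1, higher, 3 of 7 with 29.8% of genes called. Within single clusters Nqo1 was below 0 on the log2 scale in 3 of 3. Srxn1 turned to 0.10 in Rhox9-led and 0.0348 in Gm46332-led cells, and Gclc to -0.0213 in Nanos3-led cells. At a gain threshold of 1.4 the count of calls became 0. Within X-low cells none of 6 was called and 13.3% of all tested genes were, with Nqo1 at 12.3 against 12.5, Srxn1 at 6.64 against 6.88 and Gclc at 45.4 against 45.6. Adding a gain of 8 to a gain of 1 went with Hmox1 at 103 against 89.8 CPM (1.14-fold) and none of 6 called, where 1.17% of genes were. These cells with a gain of 1 alone had a median chromosome 8 ratio of 1.26, just under the gain limit. Adding a gain of 14 went with Hmox1 at 107 against 89.8 and Nqo1 at 14.7 against 12.3, none of 6 called, where 11.1% of genes were. Of 20 tested further targets 2 were higher and 6 lower (Gstm1, Gpx2, Gss, Blvrb, Cbr3 and Prdx6). The higher ones, Tkt and Abcc4, lie on chromosome 14, at 359 against 263 and 22.8 against 16.7 CPM.

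Binning cells by chromosome 8 ratio, a view added after values had been seen, separated the members further. The bins took pluripotent stem cell-like cells of all gain classes, and X-low cells of time 2 had a median chromosome 1 ratio of 1.41. The part of other gains and of clusters in the differences between bins was not tested. In X-low cells Hmox1 was at 57.1, 67.9, 85.4, 94.9 and 124 CPM at time 1 in bins of ratio under 0.9, 0.9 to 1.1, 1.1 to 1.3, 1.3 to 1.5 and 1.5 or more. At time 2 it was at 55.3, 65.4, 101, 106 and 139 CPM. Hmox1 was thus higher in each successive bin at both times, as was Gsr, from 99.3 to 198 and from 94.1 to 209 CPM. Nqo1 did not rise from bin to bin, at 6.98, 10.6, 9.49, 10.5 and 12.2 CPM at time 1 and 10.3, 10.6, 13.4, 13.5 and 12.3 at time 2. The bins held 50 to 1903 cells at time 1 and 177 to 7228 at time 2, so the outer ones are the least precise.

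At a ratio of 0.9 to 1.1, Nqo1 and Srxn1 were higher in X-high than in X-low cells at both times, and Hmox1 differed less. Hmox1 was at 68.2 (67.3 to 69.2) in X-high and 67.9 (66.3 to 69.6) CPM in X-low cells at time 1, and at 70.3 (68.9 to 71.7) and 65.4 (63.6 to 67.3) at time 2, where the intervals do not overlap. Nqo1 was at 20.01 (19.5 to 20.5) in X-high and 10.6 (9.92 to 11.2) in X-low cells at time 1, and at 16.4 (15.7 to 17.04) and 10.6 (9.86 to 11.4) at time 2. Srxn1 was at 13.2 and 9.69 CPM at time 1 and 12.0 and 7.12 at time 2. Y-positive cells in this bin, 603 and 202 in number, had 63.0 and 81.2 CPM of Hmox1 and 12.6 and 13.5 of Nqo1. In this bin the time points were also close for X-low Nqo1, at 10.6 and 10.6 CPM.

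**Figure D4:**
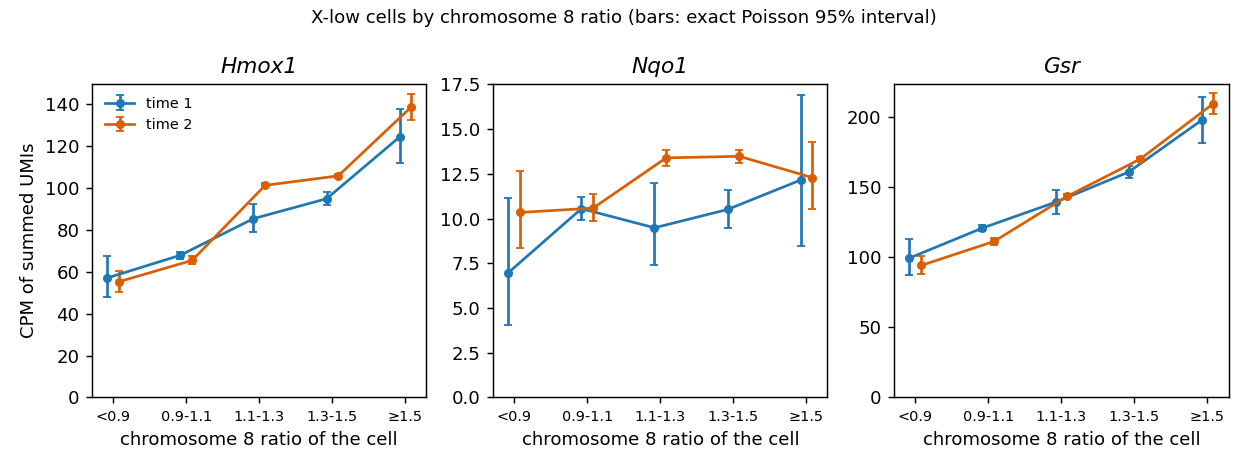
Level of Hmox1, Nqo1 and Gsr (CPM of summed UMIs, from 0) in X-low cells of all gain classes by chromosome 8 ratio of the cell, at time 1 (blue) and time 2 (orange), with 95% exact Poisson intervals. Hmox1 and Gsr are higher in each successive bin at both times, and Nqo1 lies between 6.98 and 13.5 CPM.

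Across single cells the pairwise correlations of members were low. In pluripotent stem cell-like cells thinned to 10000 UMIs, the median Pearson correlation of the 28 pairs was 0.02 at time 1 (9563 cells) and 0.02 at time 2 (19092 cells). With all UMIs in place of thinned ones the medians were 0.0789 and 0.0549. For all pairs of the 7161 and 6782 genes compared, the median was 0.002 and 0.001 and the 99th percentile 0.05 at each time. Gclm and Txnrd1 had the highest pair, 0.16 and 0.07, and at time 1 the others lay between -0.02 and 0.07, with Hmox1 and Gclm at 0.07 and Txnrd1 and Srxn1 at 0.06. At time 2 Txnrd1 and Prdx1 had the lowest, -0.08. Hmox1 and Nqo1 on the same chromosome were at 0.01 and 0.02. Gclm with Txnrd1, Hmox1 with Gclm and Gclc with Txnrd1 lay above the 99th percentile of all pairs at both times. Other pairs, such as Txnrd1 with Srxn1, lay above it at time 1 only. The medians of the members lay below it, and their 28 pairs include those with Slc7a11, at 0.832 and 0.591 CPM in these cells. Cells of 1 library are no replicates, so these small values describe the libraries and test nothing.

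**Figure D5:**
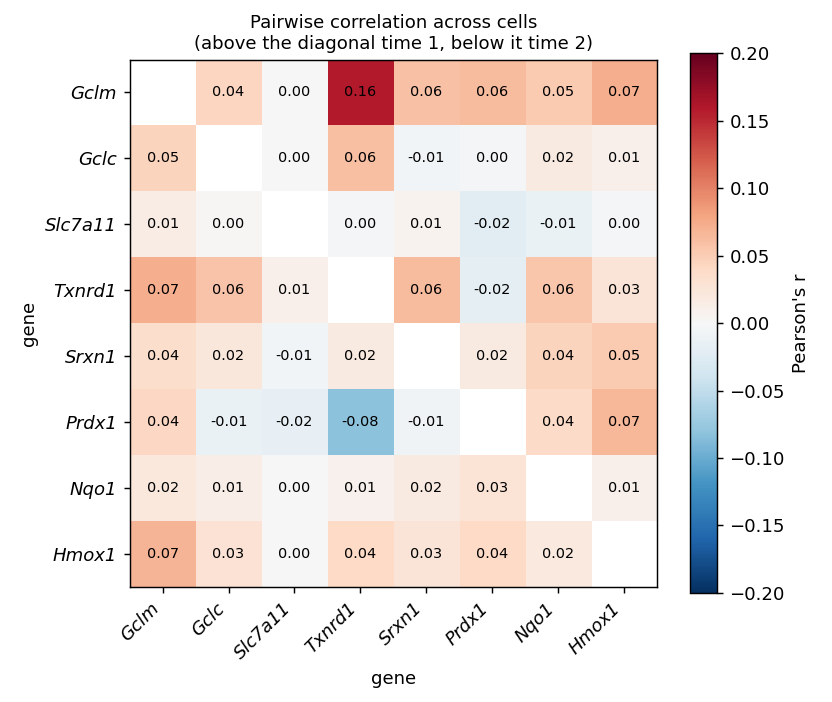
Heat map of Pearson's r for each pair of members across pluripotent stem cell-like cells thinned to 10000 UMIs, with time 1 above the diagonal and time 2 below it. Gclm with Txnrd1 is highest at time 1 (0.16), and Txnrd1 with Prdx1 lowest at time 2 (-0.08).

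Over clusters the 28 pairs of members ranged more widely, from -0.46 (Txnrd1 and Prdx1) to 0.83 (Srxn1 and Slc7a11), and no value over all gene pairs is set beside them. They are over 25 groups of cluster and time point, on the log2(CPM + 1) scale, and in second place over the 21 without fibroblast-like, macrophage-like and Krt18-led cells. These groups share libraries and neighbouring cell types. Txnrd1 and Prdx1 were at -0.46 and -0.11. Over the 21 groups the lowest pair was Hmox1 and Prdx1 (-0.45) and the highest Gclm and Gclc (0.74). Slc7a11 reached at most 9.10 CPM over the 25 groups, under the minimum level of 10 CPM, so its pairs rest on low counts. Gclm and Gclc, the ligase subunits, were at 0.70 and 0.74, and Gclm and Txnrd1 at 0.64 and 0.71. Nqo1 and Prdx1 were at 0.63 and 0.74, and Srxn1 and Slc7a11 at 0.83 and 0.54. Gclc and Txnrd1 were at 0.72 and 0.56. Some pairs were higher without the groups left out, as Gclm and Srxn1 at 0.30 and 0.61 and Gclc and Prdx1 at -0.38 and 0.55. Others were lower without them, as Hmox1 and Srxn1 at 0.70 and 0.21, Nqo1 and Hmox1 at 0.20 and -0.19, and Nqo1 and Txnrd1 at -0.02 and -0.19. With Nfe2l2, Srxn1 was at 0.79 and 0.66 and Nqo1 at 0.29 and 0.27, while Slc7a11 went from 0.71 to 0.27 and Hmox1 from 0.70 to 0.34. The others rose, Gclm from 0.45 to 0.74, Txnrd1 from 0.56 to 0.68, Gclc from 0.32 to 0.45 and Prdx1 from 0.13 to 0.24. With Bach1 the members went both ways, Nqo1 at -0.52 and -0.70 and Prdx1 at -0.73 and -0.66, but Txnrd1 at 0.71 and 0.54 and Slc7a11 at 0.30 and 0.57.

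The genes whose levels across pluripotent cells were most like the summed log level of the members were Fth1 (0.28 and 0.23) and then H2afz, Mt1, Ftl1, Prdx6, Hspd1, Ptma, Ran, Eif5a and Srsf3, of 2821 genes with at least 50 CPM. Fth1 and Ftl1 are ferritin chains, and they and Prdx6 stood on the list of known Nrf2 targets, of which 12 were among the 2821 genes. The other targets ranked lower, from Pgd at 52 to Txn1 at 510, Taldo1 at 1894 and Gstm1 at 2181. Several of these genes have processed pseudogenes, so their counts are uncertain.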

How the data were processed

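The authors deposited UMI counts per gene and cell barcode, made with Cell Ranger 6.1.2 and bcl2fastq 2.20.0.422 on mm10, per the submitters' processing notes. Barcodes with at least 18315 (time 1) or 18646 (time 2) UMIs, 1000 genes and at most 10% mitochondrial UMIs were kept. Scrublet's own threshold marked almost no cell, so the tenth with the highest scores was removed. Cells were clustered on 2000 variable autosomal genes (scanpy 1.11.5, Leiden resolution 0.5), with all UMIs of a cell scaled to a common total, and clusters were named from marker genes. Counts thinned to 10000 UMIs per cell were used for the gain classes and the correlations across cells, and not for the clustering. Library totals were 1735810403 and 1843588321 UMIs. Counts were summed per group of cells and compared as log2(CPM + 1), with calls at 1.5-fold for passage and cell states and 1.2-fold for gain and X classes, among genes of at least 10 CPM. With 1 library per time point there was no test, and edgeR 4.0.16 gave TMM factors for an alternative only. The 1.5-fold call was checked on simulated Poisson counts without variation between cells or lines, and the 1.2-fold call was not checked. Members and gene lists were chosen with earlier results of these data known. Values are given for the 8 members, for list genes that were called, for Nfe2l2, Keap1 and Bach1, and for the 10 genes most like the members' summed level.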

Additional observations from a re-analysis of the deposited data

How the results depend on the processing

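No paired analysis was possible because each time point was 1 library and the lines could not be told apart within it. Calls of members depended on the setting. The share of all tested genes called in each setting is not set beside these counts, so they describe the settings and are not read as results about the members. For passage, the count of 0 became 1 with TMM factors, 1 in the B020031M17Rik-led, 1 in the Fgf8-led, 3 in the Ramp2-led and 2 in the Lhx1-led cluster alone, and 1 in Y-positive cells with no gain, the cluster and class splits being chosen after seeing the data. For a gain of 8 alone at time 1, the count of 3 became 1 in X-low cells and 1 at a minimum of 50 CPM. At time 2 the count of 3 became 1 at a gain threshold of 1.4, 0 in Nanos3-led and 1 in Gm46332-led cells, 0 in X-low cells and 1 at 50 CPM. For a gain of 1 alone, 3 became 0 at the 1.4 threshold, 1 in Rhox9-led, 0 in Nanos3-led, 0 in Gm46332-led and 0 in X-low cells, and 0 at 50 CPM. For gains of 1 and 8 against 1 alone, 0 became 1 at a threshold of 1.2, 1 with gains called on all UMIs, 1 with chromosomes 1, 8 and 14 out of the denominator and 1 in Nanos3-led cells. For 1 and 14 the same settings gave 1, 2 and 2, all filtered cells 1, X-low cells 1 and no minimum level 1.

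In the X classes, whose alternatives were chosen after seeing the data, X-high over X-low went from 2 to 4 with TMM and 0 at 50 CPM at time 1, and from 4 to 1 at 50 CPM and 1 in Nanos3-led cells at time 2. Y-positive over X-low went from 1 to 0 with TMM, with every cell weighted alike, at 50 CPM, in Rhox9-led cells and with stricter class limits at time 1, and from 0 to 1 with equal weights, 1 in Nanos3-led cells and 2 with stricter limits at time 2. The higher minimum tests fewer genes, and both Nqo1 and Srxn1 are under it. These settings act on the calls of all genes too, whose shares are not set beside these counts. The median correlation of members became 0.0789 at time 1 and 0.0549 at time 2 with all UMIs, and 0.0352 at time 2 over all filtered cells. Directions turned for Nqo1 with a gain of 8 at time 2 (log2 -0.25 over all cells, 0.20 in Gm46332-led and 0.0034 in X-low cells), for Srxn1 with a gain of 8 (log2 0.0669 in X-low cells at time 1, 0.16 in Gm46332-led cells at time 2) and of 1 (0.10 in Rhox9-led, 0.0348 in Gm46332-led cells), for Gclc with a gain of 1 (-0.0213 in Nanos3-led, -0.00556 in X-low cells) and for Hmox1 between X classes at time 2 (0.18 in Nanos3-led cells). Beyond what these settings change by construction, the cause was not tested. Alternatives that left under 50 cells in a class were not run, among them the same-library reference at time 2 and several single clusters. Slc7a11, with 446 and 662 UMIs in pluripotent cells, was under the minimum level of 10 CPM there and below its level in the low-count barcodes. It was therefore left out of the tested members.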
